A study of Mus musculus with 2 samples.

Results

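Cholesterol and fatty acid synthesis genes were followed through the cell classes of the mouse mammary gland. The 36 genes were taken by symbol from a list, and all 36 were found among the 31053 genes of the files. They comprise 17 enzymes of the cholesterol pathway (called sterol enzymes here), 4 genes that regulate the pathway or carry sterol, and 15 genes of fatty acid synthesis and activation. The data are 10x Genomics single-cell 3′ RNA counts from 2 libraries of primary mammary cells of C57BL/6 mice, 1 library per group. The Ctrl library came from mice with the genotype miR-200c/141-flox/flox, in which the locus of the microRNAs miR-200c and miR-141 is flanked by loxP sites. The cKO library came from K8-CreERT2;miR-200c/141-flox/flox mice, which carry in addition a tamoxifen-inducible Cre recombinase under the promoter of keratin 8, a keratin of luminal cells. Both groups thus carried the floxed alleles, and both received tamoxifen at an age of 8 to 10 weeks. Glands were collected 4 weeks afterwards, and FACS was used to enrich the mammary cells, while a separate age label gives 8 weeks. The labels do not say how many mice went into a library. The loss of the microRNAs was not checked, because neither miRNA gene is among the counted genes.

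With 1 library per group there is no test between groups. All intervals below are 95% intervals that cover counting error only, not the spread between mice. Those on shares of cells cover only the draw of cells within 1 library. Library, animal and genotype cannot be told apart.

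Cholesterol is built from acetyl-CoA through mevalonate and isoprenoid units to squalene, which is closed to a ring and trimmed step by step to cholesterol. When sterols in the endoplasmic reticulum run low, the transcription factor SREBP-2 (gene Srebf2) is released and turns on these enzymes, and INSIG proteins hold it back when sterols are plentiful. Its relative SREBP-1c (gene Srebf1) drives fatty acid synthesis, which in the mammary gland supplies the lipid of milk. The mammary epithelium has an outer basal, contractile layer and 2 luminal kinds: hormone-sensing cells, which carry the receptors for ovarian hormones and prolactin, and luminal progenitors, the precursors of milk-producing alveolar cells.

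The microRNAs of the floxed locus are shown with their seeds, bases 2 to 8, in capitals, as RefSeq gives them (GRCm38.p6, chromosome 6, minus strand). Their seeds are not identical, so each has its own target match.
mmu-miR-200c-3p: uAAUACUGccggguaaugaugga
mmu-miR-141-3p: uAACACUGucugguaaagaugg

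Cells were assigned to classes from marker genes, none of which was a member. The gate held 493 Ctrl and 1076 cKO hormone-sensing luminal cells, 611 and 855 luminal progenitors, and 1007 and 875 basal cells. The libraries shared 6 cell barcodes. A further 827 and 1196 luminal cells scored for both luminal marker sets and were kept apart, as were 103 and 448 endothelial cells. The median depth was lower in cKO in each epithelial class, at 20881 and 12834.5 unique molecular identifiers (UMIs) per hormone-sensing cell, 20954 and 13682 per luminal progenitor and 10432 and 7474 per basal cell. Levels are counts per 1000000 UMIs (CPM) of the summed counts of a class in a library. The 7 hormone-sensing markers summed to 6500 CPM in Ctrl and to 7247 CPM in cKO hormone-sensing cells, but to 125 and 150.2 CPM in luminal progenitors. These markers also set the gate, so the gap between the classes follows from it and is no separate check.

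Sterol enzymes stood higher in the cKO library in hormone-sensing cells, and not in luminal progenitors or basal cells. A gene was counted as higher or lower when its CPM differed at least 1.5-fold and it had at least 100 UMIs over both libraries in the class. In hormone-sensing cells 16 of the 17 sterol enzymes had that many UMIs. Of these, 12 stood higher in cKO and 1 stood lower, while 10.7% of all 9417 genes tested there stood higher and 14.8% lower. Their median log2 ratio of cKO over Ctrl was 0.95, and that of all genes tested was -0.07. At 2-fold, 7 stood higher and 0 lower, where 5.28% of all genes stood higher and 5.46% lower. In luminal progenitors 0 of 14 sterol enzymes with enough UMIs passed 1.5-fold in either direction, where 3.75% of all genes stood higher and 9.94% lower. In basal cells it was 0 of 12, where 5.93% of all genes stood higher and 5.92% lower. The median log2 ratio was -0.06 in luminal progenitors, with all genes at -0.12, and -0.07 in basal cells, with all genes at 0.04.

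**Figure D1:**
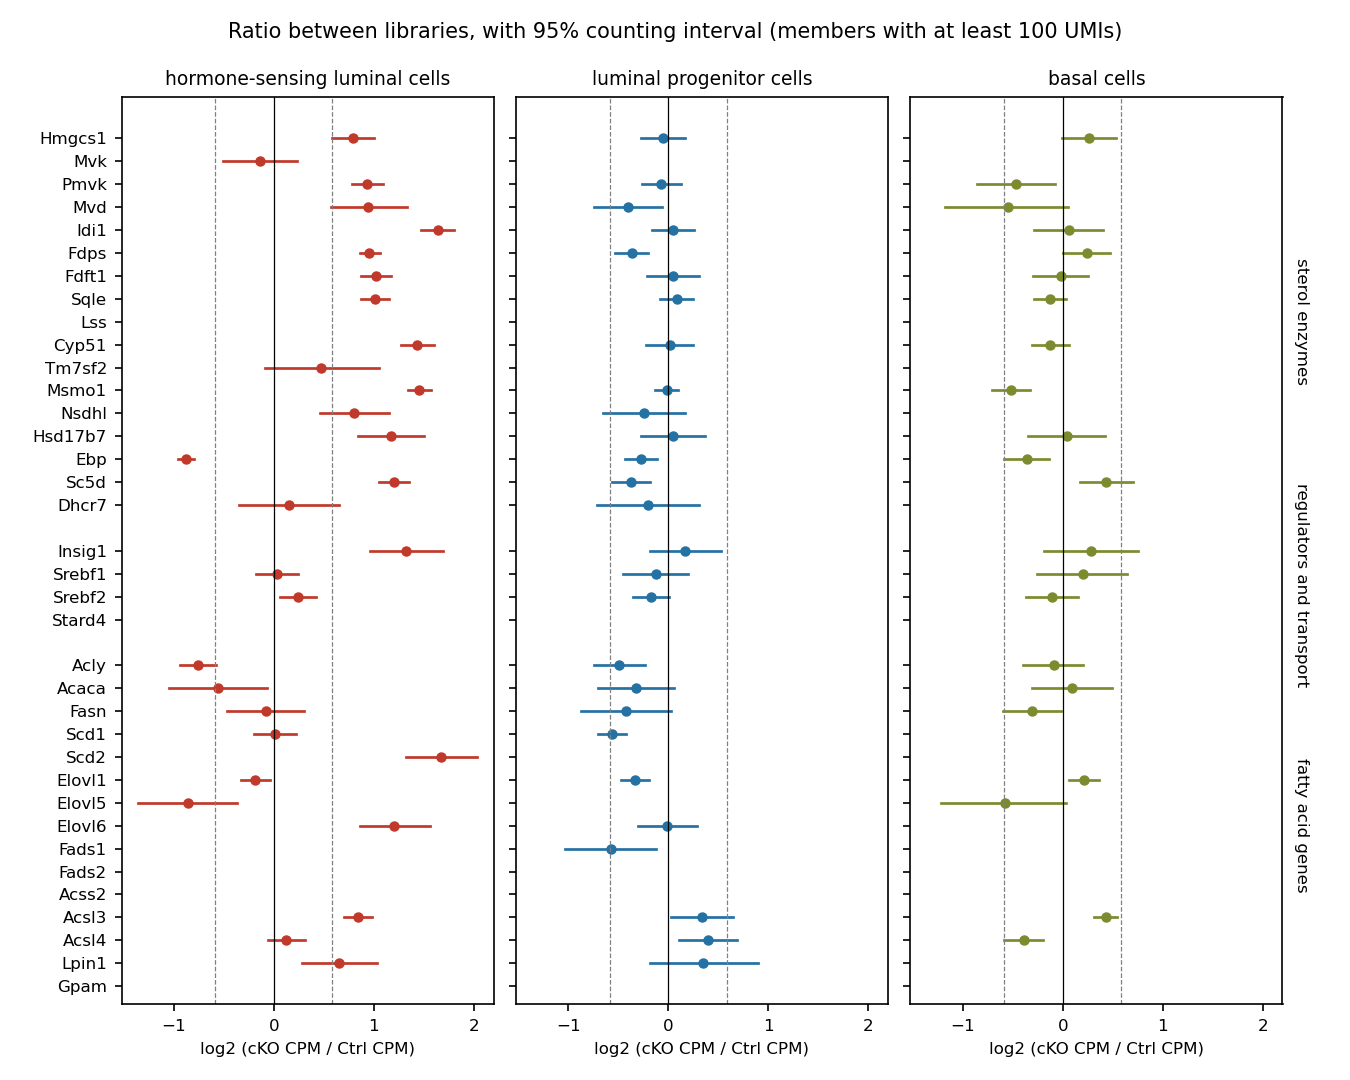
Log2 ratio of cKO over Ctrl CPM (x axis) for each member (y axis, in pathway order) in 3 epithelial classes, with 95% counting intervals. Members under 100 UMIs are not drawn, and dashed lines mark 1.5-fold. In hormone-sensing cells 12 sterol enzymes lie right of the upper line and Ebp lies left of the lower one, while in luminal progenitors and basal cells no sterol enzyme passes either line.

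The promoters of the members are shown because so many sterol enzymes differed together. RefSeq promoter sequences (GRCm38.p6, the 250 bases before each annotated start) were found for 29 of the 36 members, 14 of them sterol enzymes. Both strands were searched for CCAAT, the box bound by NF-Y, which works with SREBP at sterol genes. A gene counted when any of its starts had a match. All 14 sterol promoters held CCAAT, against 39.2% of 16522 protein-coding genes, and so did 3 of 3 regulators and 6 of 12 fatty acid genes. Of the 14 sterol genes, 9 held 2 or more. The GC box GGGCGG was in 13 of 14 sterol promoters, 7 of 12 fatty acid promoters and 47.5% of all genes. The sterol element TCACNCCAC was in 1 of 14, Hmgcs1, and in 1.22% of all genes. CCAAT was present in the 9 matched sterol genes that stood higher, in Ebp that stood lower and in the 3 within 1.5-fold, so it did not separate them. A match is a run of letters and not a measured binding site.

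Below are the promoters of Hmgcs1 (chr13:119690101-119690350, plus strand), Idi1 (chr13:8885356-8885605, plus strand), Msmo1 (chr8:64733579-64733828, minus strand) and Ebp (chrX:8193513-8193762, minus strand), read 5′ to 3′ toward the start. Capitals mark CCAAT or its complement ATTGG, and in Hmgcs1 also the sterol element, which begins 137 bases before the start. The first 3 genes stood higher in cKO hormone-sensing cells and Ebp stood lower.
Hmgcs1: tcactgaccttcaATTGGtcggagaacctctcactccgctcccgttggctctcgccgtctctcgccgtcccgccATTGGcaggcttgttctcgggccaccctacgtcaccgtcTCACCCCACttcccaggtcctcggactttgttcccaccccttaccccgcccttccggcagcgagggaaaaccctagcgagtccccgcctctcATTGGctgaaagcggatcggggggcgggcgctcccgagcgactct
Idi1: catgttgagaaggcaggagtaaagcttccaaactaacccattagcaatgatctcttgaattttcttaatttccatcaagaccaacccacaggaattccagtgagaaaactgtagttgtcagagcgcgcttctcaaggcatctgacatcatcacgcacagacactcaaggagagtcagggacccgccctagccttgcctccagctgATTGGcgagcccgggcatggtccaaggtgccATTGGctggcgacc
Msmo1: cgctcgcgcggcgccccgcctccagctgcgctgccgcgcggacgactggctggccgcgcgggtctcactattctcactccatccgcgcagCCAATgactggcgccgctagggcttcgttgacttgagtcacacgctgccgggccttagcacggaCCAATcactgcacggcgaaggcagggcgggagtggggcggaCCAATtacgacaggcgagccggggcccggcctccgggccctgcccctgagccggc
Ebp: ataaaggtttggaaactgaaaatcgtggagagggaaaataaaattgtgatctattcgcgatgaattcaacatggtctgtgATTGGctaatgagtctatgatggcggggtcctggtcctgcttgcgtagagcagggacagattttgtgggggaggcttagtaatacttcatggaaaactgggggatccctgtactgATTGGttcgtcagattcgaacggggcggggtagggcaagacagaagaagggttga

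The early, mevalonate steps of the pathway were partly higher. Hmgcs1, which encodes the synthase that makes HMG-CoA, stood at 23.3 CPM in Ctrl against 40.3 CPM in cKO hormone-sensing cells, a ratio of 1.73 (interval 1.496 to 2.004). Pmvk, the phosphomevalonate kinase, stood at 40.1 and 76.7 CPM, a ratio of 1.91 (1.72 to 2.14). Mvd, the decarboxylase that follows it, stood at 7.16 and 13.8 CPM, and its counts of 82 and 211 UMIs give a ratio of 1.92 (1.48 to 2.51). Mevalonate kinase itself, Mvk, did not follow its neighbours in the pathway. It stood at 9.78 CPM in Ctrl against 8.88 CPM in cKO, and the interval of its ratio, 0.70 to 1.18, holds 1.

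The isoprenoid and squalene steps showed the largest ratio of the sterol enzymes in these cells. Idi1, the isomerase that makes the activated isoprene unit, stood at 32.8 CPM in Ctrl against 102 CPM in cKO, a ratio of 3.11 (2.781 to 3.495). In luminal progenitors the same gene stood at 25.1 and 25.9 CPM, and in basal cells at 15.5 and 16.1 CPM, so that only the hormone-sensing level differed beyond the counting interval among these 3 classes. Fdps, which makes farnesyl diphosphate, stood at 97.9 and 190.0 CPM in hormone-sensing cells, a ratio of 1.94 (1.81 to 2.08). Fdft1, the squalene synthase, stood at 45.5 and 92.3 CPM, a ratio of 2.03 (1.83 to 2.25). Fdft1 overlaps Ctsb on the other strand. In GENCODE M21, 12 of the 36 members overlap a gene on the other strand and 11 one on the same strand, many of them predicted genes, and whether the counting used strand is not given in the sources used here. Sqle, the squalene epoxidase and a controlled step of the pathway, stood at 49.1 and 99.1 CPM, a ratio of 2.02 (1.83 to 2.23). Basal cells held a Sqle level between these, 74.4 CPM in Ctrl against 68.0 CPM in cKO.

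Most of the enzymes that trim lanosterol to cholesterol stood higher too. Cyp51, the lanosterol demethylase, stood at 33.5 CPM in Ctrl against 90.5 CPM in cKO hormone-sensing cells, a ratio of 2.70 (2.41 to 3.03). It overlaps Akap9 on the other strand. Msmo1, which oxidises the methyl groups of the ring, stood at 71.1 and 195 CPM, a ratio of 2.74 (2.53 to 2.96). Sc5d, a desaturase late in the pathway, stood at 43.5 and 100.1 CPM, a ratio of 2.30 (2.08 to 2.55). Nsdhl and Hsd17b7, which act in the same demethylation, had ratios of 1.74 (1.38 to 2.22) and 2.25 (1.80 to 2.84). Tm7sf2, a sterol reductase, had 42 and 78 UMIs and a ratio of 1.39 (0.94 to 2.07). Tm7sf2 overlaps Vps51 on the same strand, so reads of the overlap cannot be told apart. Dhcr7, the reductase of the last step, stood at 5.07 and 5.61 CPM. Lss, which closes the ring, had 34 and 65 UMIs, under the minimum, with a ratio of 1.43 (0.93 to 2.23).

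Ebp, the isomerase that shifts the ring's double bond, went the other way. It stood at 267 CPM in Ctrl against 145 CPM in cKO hormone-sensing cells, a ratio of 0.54 (0.51 to 0.57). In luminal progenitors it stood at 49.4 and 41.0 CPM, and in basal cells at 42.4 and 33.0 CPM. Hormone-sensing cells therefore held the highest Ebp level of the 3 classes in both libraries, and the gap to the lowest class was 6.31-fold in Ctrl and 4.39-fold in cKO.

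Ratio intervals were also compared between classes. Of the 14 sterol enzymes with enough UMIs in both hormone-sensing cells and luminal progenitors, 12 had a hormone-sensing interval wholly above that of luminal progenitors, and for 1 it lay wholly below. Against basal cells it lay above for 11 of 12 and below for 1. The gene below was Ebp in each case. How often such intervals lay apart among all genes was not counted, so these counts have no background beside them. Within luminal progenitors the ratios ran from 0.76 (Mvd) to 1.06 (Sqle). Msmo1 stood at 89.0 and 87.9 CPM there, and Cyp51 at 21.77 and 21.95 CPM. Within basal cells the ratios ran from 0.68 (Mvd) to 1.35 (Sc5d). Basal Msmo1 stood at 65.3 CPM in Ctrl against 45.7 CPM in cKO, a ratio of 0.70 (0.61 to 0.80), opposite in direction to hormone-sensing cells.

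Among the regulators, Insig1 followed the enzymes. Insig1 (GRCm38 chr5:28071363-28078662, plus strand), a feedback inhibitor of SREBP processing, stood at 7.34 CPM in Ctrl against 18.3 CPM in cKO hormone-sensing cells, a log2 ratio of 1.32 (0.97 to 1.69). In luminal progenitors it stood at 8.86 and 9.95 CPM and in basal cells at 7.57 and 9.22 CPM. The transcripts of the SREBP factors stood closer together in the 2 libraries. Srebf2 stood at 36.8 and 43.5 CPM in hormone-sensing cells, a ratio of 1.18 (1.05 to 1.34), while luminal progenitors held 37.8 and 33.4 CPM. Srebf1 stood at 28.4 and 29.1 CPM in hormone-sensing cells, a ratio of 1.02 (0.89 to 1.18), while luminal progenitors held 11.99 and 10.98 CPM. Srebf1 overlaps Rai1 on the other strand. Of the 3 regulators with enough UMIs, 1 stood higher in hormone-sensing cells and none lower, and in luminal progenitors and basal cells 0 passed. Of all genes, 10.7% stood higher and 14.8% lower in hormone-sensing cells, 3.75% and 9.94% in luminal progenitors, and 5.93% and 5.92% in basal cells.

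Stard4, a carrier of cholesterol between membranes, was nearly absent from the epithelium. It had 6 Ctrl and 10 cKO UMIs in all hormone-sensing cells. Endothelial cells held it at 34.5 CPM in Ctrl against 72.0 CPM in cKO, a ratio of 2.08 (1.66 to 2.64). Over all kept cells Stard4 stood at 2.11 and 9.48 CPM, while endothelial cells made up 3.04% of Ctrl and 8.24% of cKO cells.

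The fatty acid genes did not share one direction in hormone-sensing cells. Of 11 with enough UMIs, 4 stood higher in cKO, 2 stood lower and 5 passed neither line, with a median log2 ratio of 0.01. Both shares, 36.4% and 18.2%, can be read against the 10.7% and 14.8% of all genes. Scd2, a stearoyl-CoA desaturase, had the highest ratio of all members that met the UMI minimum in hormone-sensing cells, with 7.43 CPM in Ctrl against 23.6 CPM in cKO (ratio 3.18, 2.51 to 4.08). Its close relative Scd1 stood at 28.9 and 29.1 CPM in the same cells, a ratio of 1.01 (0.87 to 1.16). Scd2 (GRCm38 chr19:44293674-44306864, plus strand) and Scd1 (chr19:44394455-44407879, minus strand) lie close together, and how reads that match both were counted is not given in the sources used here.

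Elongation and activation genes were also mixed. Elovl6, which lengthens saturated chains, stood at 8.04 CPM in Ctrl against 18.5 CPM in cKO hormone-sensing cells, a ratio of 2.31 (1.82 to 2.95). Elovl5, which lengthens polyunsaturated chains, stood at 7.34 and 4.05 CPM, a ratio of 0.55 (0.39 to 0.78). Acsl3, an acyl-CoA synthetase of lipid droplets, stood at 51.8 and 92.9 CPM, a ratio of 1.79 (1.63 to 1.98). It overlaps Utp14b on the same strand. Its relative Acsl4, which prefers arachidonate, stood at 35.0 and 38.2 CPM, a ratio of 1.09 (0.96 to 1.24). Lpin1, a phosphatidate phosphatase of glyceride synthesis, stood at 7.86 and 12.3 CPM, a ratio of 1.57 (1.21 to 2.04).

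The genes that make palmitate from citrate stood level or lower. Acly, which splits citrate to acetyl-CoA, stood at 50.1 CPM in Ctrl against 29.6 CPM in cKO hormone-sensing cells, a ratio of 0.59 (0.52 to 0.67). Acaca, the acetyl-CoA carboxylase, stood at 6.73 and 4.57 CPM, a ratio of 0.68 (0.48 to 0.95). Fasn, the fatty acid synthase, stood at 8.999 and 8.487 CPM, a ratio of 0.94 (0.72 to 1.23). Apart from these genes, Elovl1 stood at 64.5 and 56.7 CPM, a ratio of 0.88 (0.80 to 0.97), and it overlaps Cdc20 on the other strand. The remaining 4 members were too scarce in hormone-sensing cells: Fads1 with 11 and 2 UMIs, Fads2 with 4 and 5, Acss2 with 50 and 46, and Gpam with 7 and 10.

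Matches to the seeds, CAGTATT for miR-200c-3p and CAGTGTT for miR-141-3p, were searched on the sense strand of the longest annotated 3′ untranslated region (UTR) of each gene in GENCODE M21. At least 1 match was found in 5 of 17 sterol enzymes, 2 of 4 regulators and 8 of 15 fatty acid genes, against 32.2% of 9224 genes with enough UMIs in hormone-sensing cells. Unlike that background, the member counts take in members under the UMI minimum, of which Lss, Stard4 and Gpam held a match. The median UTR length was 944 bases for sterol enzymes, 1968 for fatty acid genes and 1305.5 for those genes overall. Of the 12 sterol enzymes that stood higher, 9 had no match. A match was present in all 4 fatty acid genes that stood higher, in 3 of the 5 within 1.5-fold (Scd1, Acaca and Acsl4) and in 0 of the 2 that stood lower. The UTRs of the 4 ran from 1328 bases (Acsl3) to 5005 (Elovl6), and those of the 2 were 891 (Acly) and 1711 (Elovl5). Matches were not adjusted for UTR length. Acaca, with 1 match, had a ratio of 0.68, close to the line. Scd1, whose ratio in hormone-sensing cells was 1.01, had 2 matches. The sites below, in capitals within their flanking bases, are shown because Scd1 and Scd2 each hold a miR-200c-3p match near the start of the UTR while their ratios differed, and because Elovl6 and Sqle are 2 of the genes that stood higher. They begin at base 125 (Scd2) and 122 (Scd1) of the UTR, at base 2640 in Elovl6 and at base 222 in Sqle.
Scd2: cccattctggtaCAGTATTgtaa
Scd1: cctattccggtaCAGTATTctta
Elovl6: tacaggcaattcCAGTGTTcacc
Sqle: ttcttttgatttCAGTATTtggg

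In luminal progenitors and basal cells no fatty acid gene passed 1.5-fold, among 10 and 7 with enough UMIs. Of all genes, 3.75% stood higher and 9.94% lower in luminal progenitors, and 5.93% and 5.92% in basal cells. With so few members, a count of 0 lies near these shares. The median log2 ratio was -0.33 in luminal progenitors, beside -0.12 for all genes there, and 7 of the 10 lay below 0. With a minimum of 20 UMIs the median was -0.11 over 14 genes. Scd1 stood at 73.2 CPM in Ctrl against 49.5 CPM in cKO luminal progenitors, a ratio of 0.68 (0.61 to 0.74), just inside the line. Fads1 stood at 7.19 and 4.83 CPM (ratio 0.67, 0.49 to 0.92) and Acly at 21.9 and 15.6 CPM (ratio 0.71, 0.60 to 0.85). In basal cells Acsl3 stood at 113 and 152 CPM, a ratio of 1.35 (1.24 to 1.46). Basal Acsl4 went the other way at 58.3 and 44.5 CPM, a ratio of 0.76 (0.67 to 0.87).

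The class in which a member stood highest was the same in both libraries for 26 of the 36 members. Sterol enzymes stood highest in hormone-sensing cells for 11 of 17 in Ctrl and for 17 of 17 in cKO. The 6 that moved to hormone-sensing cells were led by luminal progenitors (3) or basal cells (3) in Ctrl. Some of these leads were within counting error, as for Hmgcs1, whose first and second classes in Ctrl differed 1.05-fold (0.89 to 1.23). The same held for some hormone-sensing leads, as for Dhcr7 in cKO, 1.28-fold (0.91 to 1.81) over the second class. How often all genes stood highest in each class was not counted, so these counts have no background beside them. Fatty acid genes were spread over the classes, with 5 of 15 highest in hormone-sensing cells, 3 in luminal progenitors and 5 in basal cells in both libraries.

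Class contrasts were larger for some fatty acid genes than their differences between libraries. Scd1 was a luminal gene, at 73.2 CPM in Ctrl luminal progenitors and 5.02 CPM in Ctrl basal cells, and the gap between those classes was 14.6-fold in Ctrl and 10.9-fold in cKO. Scd2 had the opposite luminal preference, with 9 and 11 UMIs (0.60 and 0.80 CPM) in luminal progenitors, so that its gap to hormone-sensing cells was 12.4-fold by point estimate in the library where it was smaller. Acsl3 was highest in basal cells, 10.1-fold over luminal progenitors in Ctrl and 10.7-fold in cKO. Fasn was also highest in basal cells, at 25.01 and 20.23 CPM. Fads1 was highest in luminal progenitors and lowest in hormone-sensing cells, where it had 11 UMIs in Ctrl and 2 in cKO. Mvk and Tm7sf2 were both highest in hormone-sensing cells and lowest in basal cells, by 7.17-fold and 7.43-fold in the library where each gap was smaller, the latter on 6 and 3 basal UMIs.

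**Figure D2:**
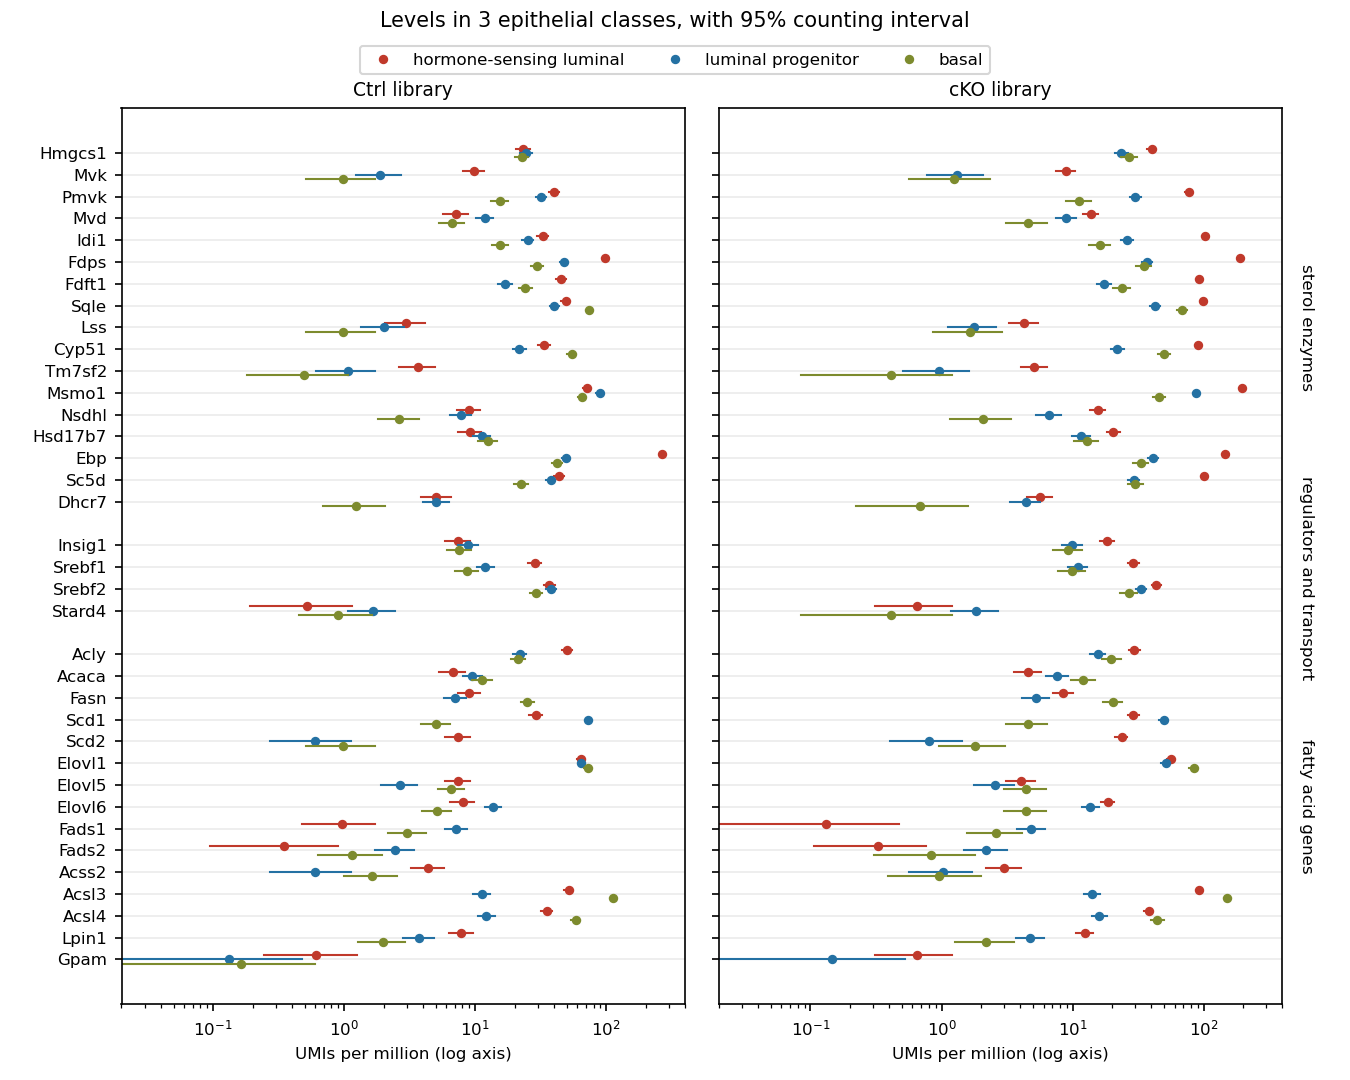
CPM (x axis, log scale) of each member (y axis) in hormone-sensing luminal, luminal progenitor and basal cells, in the Ctrl (left) and cKO (right) libraries, with 95% counting intervals. In cKO the hormone-sensing point is the rightmost for all 17 sterol enzymes. In Ctrl it is rightmost for 11. Gpam has 0 UMIs in cKO basal cells and is not drawn there.

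Depth differs between the libraries, so cells were also thinned to 5000 UMIs each, with shallower cells left out. The summed sterol enzyme count then averaged 3.47 UMIs in 474 Ctrl hormone-sensing cells (19 left out) and 5.95 UMIs in 990 cKO cells (86 left out). In luminal progenitors the means were 2.015 and 2.004, and in basal cells 1.91 and 1.85. The cKO hormone-sensing cells were also more spread: the 10th and 90th percentiles were 1 and 6 UMIs in Ctrl and 1 and 12 in cKO, and the variance over the mean was 1.91 and 3.99.

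Single genes gave the same picture. At 5000 UMIs, Msmo1 was seen in 24.3% (20.5 to 28.4, exact Clopper-Pearson interval) of Ctrl and 51.1% (47.9 to 54.3) of cKO hormone-sensing cells, against 62.1% and 72.6% before thinning. In basal cells, which hold the gene too, the thinned shares were 22.9% and 18.8%. Idi1 was seen in 11.2% (8.49 to 14.4) and 33.1% (30.2 to 36.2) of hormone-sensing cells, against 36.7% and 52.8% before thinning. Ebp was seen in 67.7% (63.3 to 71.9) and 47.2% (44.0 to 50.3), against 91.1% and 73.5% before thinning. Scd1 was unevenly spread over luminal progenitors, where the 5% of thinned cells richest in it held 53.2% of its UMIs in Ctrl and 59.6% in cKO.

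**Figure D3:**
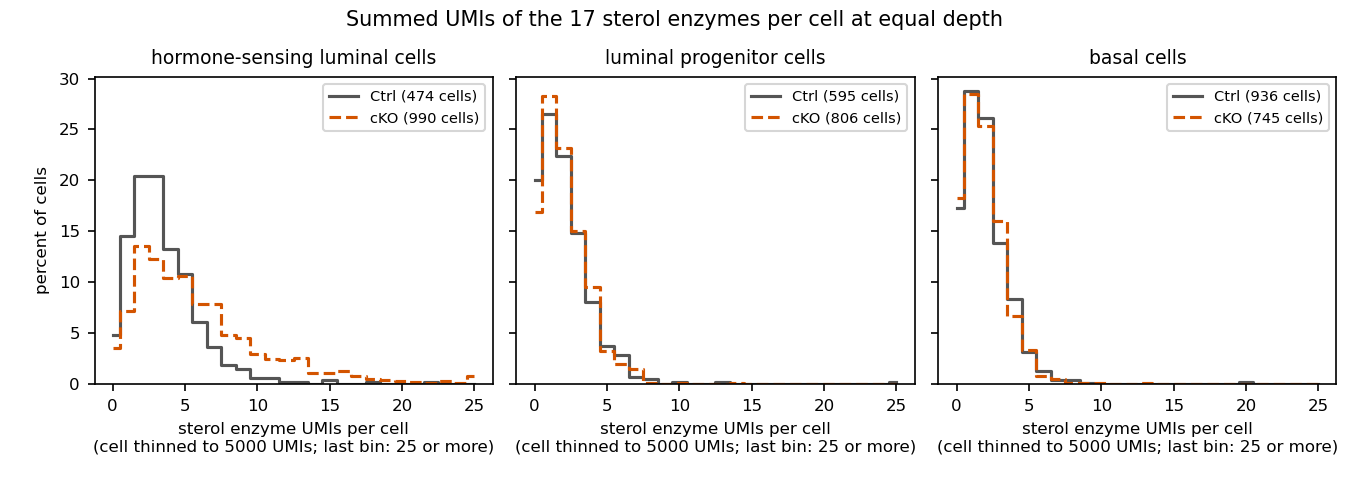
Percent of cells (y axis) by summed UMIs of the 17 sterol enzymes (x axis) after thinning each cell to 5000 UMIs, for Ctrl (solid) and cKO (dashed). The cKO curve of hormone-sensing cells reaches farther right, with a 90th percentile of 12 against 6, while the curves of luminal progenitors and basal cells lie close together.

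The steps of the sterol pathway were also compared from cell to cell. Summing every other step gave 2 sets of enzymes, whose thinned counts correlated with Pearson's r = 0.26 over 474 Ctrl and 0.52 over 990 cKO hormone-sensing cells. In luminal progenitors r was 0.31 in Ctrl and 0.10 in cKO, and in basal cells 0.10 in both. Without the cell of the highest sterol count in each library, a check added after seeing the data, r was 0.21 and 0.50 in hormone-sensing cells, 0.12 and 0.06 in luminal progenitors and 0.04 and 0.06 in basal cells. The luminal progenitor cell left out of Ctrl held 32 sterol UMIs of its 5000. The remaining sterol enzymes did not follow Ebp, with r = 0.03 and 0.00 in hormone-sensing cells. Ebp was in 1 of the 2 sets, and r of the sets without it was not computed. Per thinned hormone-sensing cell, Ebp averaged 1.27 UMIs in Ctrl and 0.71 in cKO, and the remaining sterol enzymes 2.20 and 5.24. Its weight among the sterol UMIs therefore differed between the libraries, which limits the comparison of r. The values of r are descriptions over cells of 1 library each, and r depends on the level, which was higher in cKO.

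Luminal cells that scored for both marker sets were counted apart. Of 17 sterol enzymes 9 stood higher and 1, Ebp, stood lower, where 8.17% of all genes stood higher and 15.1% lower. Idi1 stood at 26.4 and 70.7 CPM there, a ratio of 2.68 (2.498 to 2.867), and Insig1 at 7.35 and 15.9 CPM. Scd2 and Acsl3 stood higher as well, at ratios of 2.58 (2.19 to 3.05) and 1.58 (1.48 to 1.68), and Acly and Acaca lower, at 0.61 (0.57 to 0.66) and 0.59 (0.49 to 0.70). Elovl6 stood at 15.5 and 16.7 CPM there, a ratio of 1.07. These cells had the highest median depth of the classes, 48592 UMIs in Ctrl and 29657 in cKO. The medians were 20881 and 12834.5 UMIs in hormone-sensing cells, and 20954 and 13682 in luminal progenitors. Whether some of these barcodes held a cell of each luminal kind was not tested beyond the doublet calls. The 9 sterol enzymes that stood higher here are therefore no separate check of the result in hormone-sensing cells.

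In endothelial cells 4 of 10 sterol enzymes stood higher and 0 lower, where 14.0% of all genes stood higher and 6.62% lower. They were Idi1, Fdps, Hsd17b7 and Sc5d, and Idi1 rested on 21 and 198 UMIs (ratio 2.21, 1.40 to 3.65). Msmo1 and Cyp51, among the highest ratios in hormone-sensing cells, were level there at 14.2 and 14.0 CPM and 11.8 and 12.7 CPM. Elovl6 stood at 13.4 and 33.7 CPM, a ratio of 2.51 (1.76 to 3.71). The endothelial cells differed in number between the libraries after the FACS step, and their subtypes were not resolved here.

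Other lipid genes were counted in lists. Of 18 further genes of lipid synthesis and SREBP control with enough UMIs in hormone-sensing cells, 3 stood higher and 4 lower. Among all genes there, 10.7% stood higher and 14.8% lower. Me1, the malic enzyme that supplies NADPH, stood at 24.9 CPM in Ctrl against 60.1 CPM in cKO, and Hsd17b12, a chain-elongation reductase, at 147 and 63.6 CPM. Of 8 genes of sterol export and esterification, 1 (Soat1) stood higher and 5 stood lower, with a median log2 ratio of -0.71. Among them Npc2, which moves cholesterol out of lysosomes, stood at 327 and 169.6 CPM, and Abcg1, a cholesterol exporter, at 8.74 and 4.70 CPM. Of 10 genes of lipid uptake, storage and milk fat 2 stood higher and 4 lower, and of 12 genes of fatty acid oxidation 2 and 2. In luminal progenitors the same lists gave 1 higher and 1 lower of 18, 0 and 2 of 6, 1 and 3 of 13, and 1 and 1 of 12. In basal cells they gave 0 and 0 of 18, 0 and 1 of 7, 1 and 2 of 11, and 0 and 2 of 11. The shares of all genes were 3.75% higher and 9.94% lower in luminal progenitors, and 5.93% and 5.92% in basal cells.

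**Figure D4:**
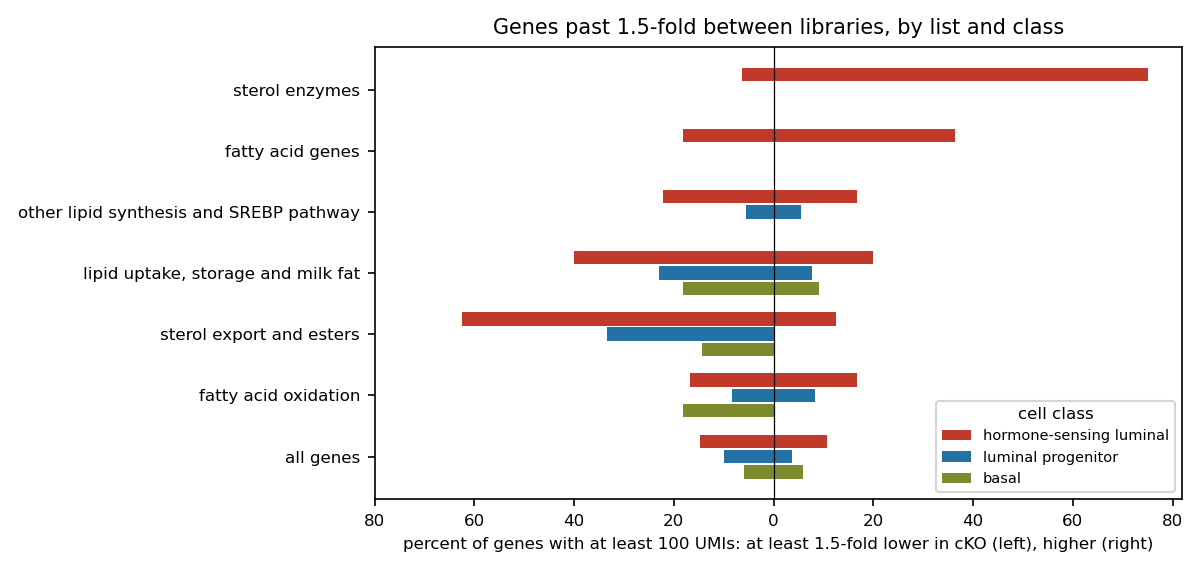
Percent of genes with at least 100 UMIs (x axis) that stood at least 1.5-fold lower (left bars) or higher (right bars) in cKO, by gene list (y axis) and class. In hormone-sensing cells the sterol enzymes reach 75.0% higher, and the sterol export and ester genes 62.5% lower, against 10.7% and 14.8% of all genes.

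Markers of other cell types and stress genes were also summed in hormone-sensing cells, beside the 1204 CPM of the sterol enzymes in cKO. Basal markers summed to 22.4 CPM in Ctrl against 35.9 CPM in cKO, with 1 of 7 at 0 in each. Fibroblast markers summed to 216 and 177 CPM, endothelial markers to 28.4 and 37.9 CPM and myeloid markers to 4.81 and 12.1 CPM. Adipocyte markers had 1 and 2 UMIs in all, with 6 and 5 of 7 at 0. Of 12 genes of the dissociation stress response, 2 stood higher (Junb and Atf3) and 3 lower (Hspa1a, Hspa1b and Hsp90aa1), beside 10.7% and 14.8% of all genes. The 12 stress genes summed to 7944 CPM in Ctrl against 10004 CPM in cKO, while Hspa1a alone stood at 340 and 158 CPM. The part of these signals in the sterol result was not tested.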

How the data were processed

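Single-cell 3′ RNA libraries of mammary cells (10x Chromium v2 chemistry, per the labels' protocols) were analysed from the deposited matrices. The values the authors deposited are raw UMI counts per gene and barcode, not normalised. The submitters' processing notes name Cell Ranger 2 and mm10, and the file headers record software version 3.0.0; other settings are not given in the sources used here. The matrices held 4237 Ctrl and 6257 cKO barcodes with 95520633 and 103668011 UMIs.

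The cell filter asked for at least 500 genes and no more than 10% mitochondrial UMIs. Scrublet (scanpy 1.11.5, expected rate 0.8% per 1000 cells) marked 27 Ctrl cells (0.79%) and 55 cKO cells (1.001%) as doublets, which were removed, leaving 3389 and 5438 cells. Classes were gated on mean log1p counts per 10000 of marker lists, with a score of at least 0.5 and at least 3 markers detected. The other epithelial and the endothelial scores had to lie below 0.4, and those of the remaining cell types below 0.5. Cells with both luminal marker sets passed 0.5 for both. The luminal keratin score was at least 2.5 for luminal and below 2.5 for other cells. These cutoffs were chosen after the marker scores were seen, without the member genes. At most 7 cells of a class and library lay within 0.1 above the 0.5 cutoff of their own class score. Cells near the other cutoffs, and cells with both marker sets, were not counted in this.

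Within each library the counts of a class were summed and expressed as CPM. Poisson intervals on levels and conditional binomial intervals on ratios were exact. UMIs are single molecules, but intervals still cover counting error only. No test was made. The steps were checked on simulated counts. Members, gene lists and the rule for named genes (per class and gene group, up to 4 highest and 4 lowest ratios past 1.5-fold, the 3 highest levels, and the 5 largest class contrasts) were chosen with earlier results of these data known, and values of further members were added after they were seen. 8 alternatives were planned (trimmed mean scaling in edgeR 4.0.16, another UMI minimum, another fold, a stricter cell filter, doublets kept, a stricter gate, clusters in place of the gate, equal weight per cell) and 2 more for the gene counts, beside 1 for the correlation over cells, were added after the data were seen. Cells not gated (348 Ctrl and 988 cKO) entered no class.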

Additional observations from a re-analysis of the deposited data

Results flagged for a closer look

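Among the sterol enzymes that stood higher in cKO hormone-sensing cells, 5 had a ratio of the other sign in another epithelial class with a counting interval that did not hold 1. The difference between classes was not tested, since each class rests on the same 2 libraries. The log2 ratio of cKO over Ctrl was -0.46 for Pmvk in basal cells, against 0.94 in hormone-sensing cells. For Msmo1 it was -0.52 in basal cells, against 1.45. In luminal progenitors it was -0.40 for Mvd, against 0.94 in hormone-sensing cells. It was -0.37 for Fdps there, against 0.96, and -0.37 for Sc5d, against 1.20. None of these 5 lower values reached 1.5-fold. How many of all genes differed in sign in this way was not counted, so the 5 have no background beside them. The median log2 ratio of all genes was -0.12 in luminal progenitors and 0.04 in basal cells.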

How the results depend on the processing

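The count of 12 sterol enzymes standing higher in hormone-sensing cells was the same under each alternative except a 2-fold threshold. At 2-fold it was 7, with 0 lower. The median log2 ratio of the sterol enzymes in these cells lay between 0.92 and 1.02 over all settings. Keeping the doublet calls left the medians and all-gene shares of the 3 epithelial classes unchanged, so it adds no check. A minimum of 20 UMIs can only add members, here 17 in place of 16. At 2-fold, 2 of 11 fatty acid genes in hormone-sensing cells stood higher and 0 lower, beside 5.28% and 5.46% of all genes. With clusters, in cells of 5000 UMIs or more, and without mitochondrial and ribosomal UMIs, 3 of 11 stood lower. Of all genes, 15.8%, 15.1% and 15.9% stood lower in these settings, in that order. In luminal progenitors, 3 of 10 fatty acid genes stood lower with the stricter gate and 2 of 10 without mitochondrial and ribosomal UMIs. The count was 1 of 10 with each cell weighted the same and 1 of 10 in cells of 5000 UMIs or more. Of all genes, 9.86%, 10.8%, 11.0% and 10.1% stood lower in these settings, in that order. At a minimum of 20 UMIs 1 of 14 stood higher, beside 6.69% of all genes. In basal cells, 1 sterol enzyme stood lower with trimmed mean scaling, a minimum of 20 UMIs, the stricter gate, clusters, and each cell weighted the same, and 1 higher at 20 UMIs. There, 1 of 7 fatty acid genes stood lower with trimmed mean scaling, the stricter cell filter, each cell weighted the same, and without mitochondrial and ribosomal UMIs. At 20 UMIs 1 of 14 stood lower and 1 higher. Of all genes in basal cells, 5.35% to 6.81% stood lower in the settings named here other than 20 UMIs. The cause of these shifts was not tested. Trimmed mean scaling moved the background of luminal progenitors from 3.75% higher and 9.94% lower to 5.15% and 6.75%, and the sterol median there from -0.06 to 0.03 (0.03 also with the stricter gate), so no direction is given for it. The fatty acid median also turned sign, from 0.01 to between -0.04 and -0.01 in hormone-sensing cells at 20 UMIs, without mitochondrial and ribosomal UMIs, and with each cell weighted the same, and from -0.09 to 0.13 in basal cells with each cell weighted the same. The clusters were largely of 1 library each in hormone-sensing cells (520 Ctrl and 0 cKO cells, 2 and 1011). The same held in basal cells (1028 and 138, 54 and 846), while the luminal progenitor cluster held 705 and 1074. Depth limits the scarce members, such as Lss, Fads2 and Gpam. No paired analysis was possible because each group has 1 library.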
